A study of Homo sapiens and Mus musculus with 10 samples.

Results

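The response to glucose deprivation was described in HEK293T cells, a human embryonic kidney line, that lack UFD1s. It rests on 2 libraries of the genotype set, UFD1s-deficient mock and UFD1s-deficient cells kept without glucose for 24 h (GD). A transcript was taken as measured when the higher of these 2 libraries held 50 or more reads, which left 10054 of 11976 deposited transcripts, with 1922 below that number. The whole series holds 10 libraries. Those used beside the deficient pair were wild-type (WT) HEK293T mock and GD from the same genotype set, and a separate stress set of WT mock, WT GD for 24 h and WT treated for 6 h with 300 nM thapsigargin (TG), which empties calcium stores of the endoplasmic reticulum (ER). The submitters describe GD as metabolic oxidative stress. The series text calls the assay RNA-seq after ribosomal RNA depletion, but the library kit in the labels is sold for ribosome profiling. Whether the reads are RNA or ribosome footprints is not settled by the labels, and all values are read here as RNA. MALAT1, a nuclear RNA that is not translated, held 210031 reads in deficient mock. The labels do not say how the deficient line was made, whether it is 1 clone, or whether libraries came from separate cultures. With 1 library a side the deficient response has no replicate check of its own, and in bulk RNA fewer cells with a transcript and less of it per cell cannot be told apart.

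UFD1 works with NPLOC4 as a cofactor of the ATPase VCP (p97), which pulls ubiquitinated proteins out of membranes and complexes and hands them to the proteasome, also in ER-associated degradation. Loss of glucose starves the cell of fuel and of sugars for protein glycosylation, and unfolded proteins in the ER then activate the sensors PERK, IRE1 and ATF6. PERK, like the amino acid sensor GCN2, starts the integrated stress response, in which the translation factor eIF2 is phosphorylated and the transcription factors ATF4 and CHOP act on their target genes.

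Reads on transcripts came to 13110714 in deficient mock and 11912659 in deficient GD, and the other 5 libraries held between 11461365 and 19024327. Of 8 marker genes listed for HEK293T, 5 were in the table (VIM, NEFL, INA, ENO2 and CDH2) and all 5 passed the read minimum. Of 15 markers of other cell types 1, RBFOX3, was in the table, below the minimum. The UFD1 transcript held 199 reads in deficient mock and 193 in deficient GD, and 168 and 107 in WT mock and GD. Nothing states that these reads cover the part of UFD1 that the line lacks, so they do not check the label. NPLOC4 went from 5373 to 4550 reads in deficient cells and VCP from 11206 to 8286, log2 ratios of −0.04 and −0.23.

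Most of the transcriptome moved little. The log2 ratio of GD over mock had a median of −0.02 over the 10054 transcripts, with quartiles of −0.32 and 0.25. At 2-fold or more, 634 transcripts differed (6.31%), of which 215 were higher (2.14%) and 419 lower (4.17%). At 4-fold or more, 23 were higher and 28 lower. Counting error alone kept fewer apart, since the exact 95% interval of the ratio lay wholly past 2-fold for 89 higher and 147 lower transcripts. Of the 215 higher transcripts 101 had under 50 reads in mock, and of the 419 lower 229 had under 50 in GD. Those passed the read minimum only through their higher library, so the rule itself favoured a difference.

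**Figure D1:**
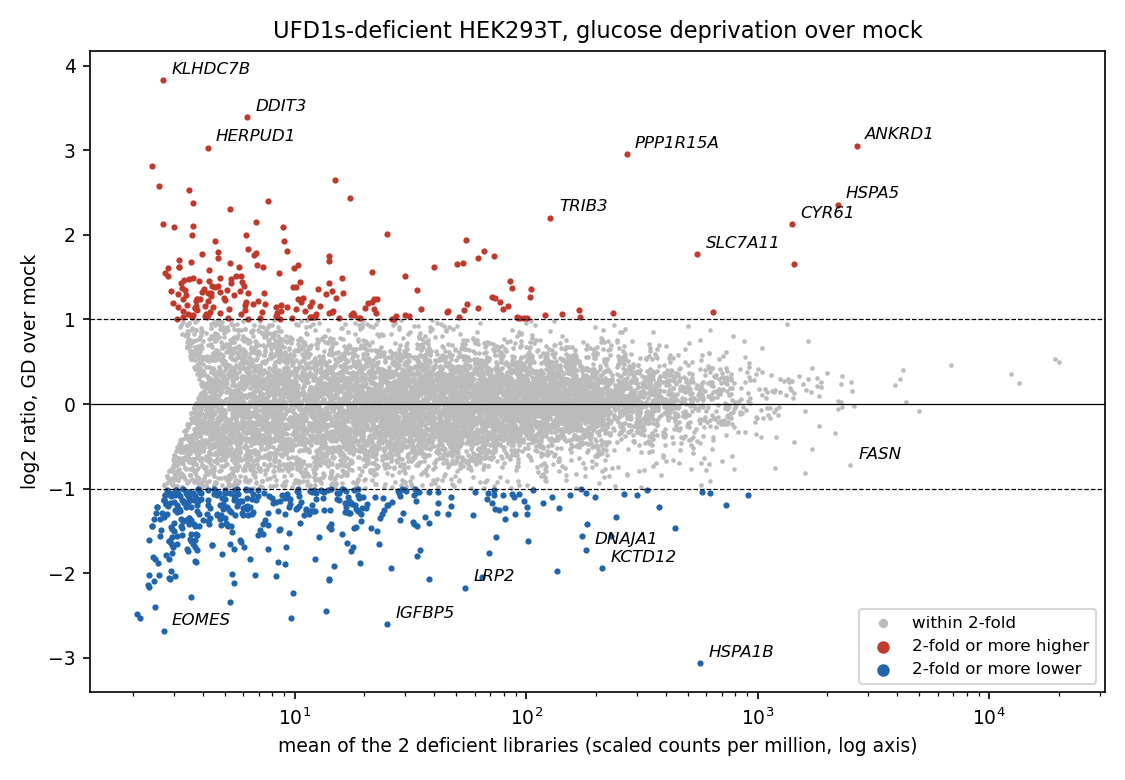
Each point is 1 of the 10054 measured transcripts, with the mean of the 2 deficient libraries in scaled CPM (log axis) against the log2 ratio of GD over mock, and dashed lines at 2-fold. PPP1R15A, ANKRD1 and HSPA5 stand out among well-covered transcripts above the lines and HSPA1B below them, with ratios of 2.96, 3.05, 2.36 and −3.07.

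The integrated stress response gave the highest list median. Of 22 measured members 14 were at least 2-fold higher and 0 at least 2-fold lower, with a median log2 ratio of 1.28 against −0.02 over all transcripts. PPP1R15A encodes GADD34, the phosphatase subunit that reverses eIF2 phosphorylation. It rose from 826 to 5605 reads, a ratio of 7.81 (95% counting interval 7.26 to 8.42). In the test over 6 mock and GD libraries, which lends the deficient pair the spread of the WT pairs, its log2 change was 2.97 (SE 0.219, edgeR quasi-likelihood adjusted p = 0.002297). CEBPB, a bZIP partner of ATF4 and CHOP, rose from 443 to 1301 reads (log2 1.76, SE 0.222, edgeR adjusted p = 0.0372).

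Other members were high in GD without being called by that test. DDIT3, which encodes CHOP, held 10 reads in mock and 136 in GD, a ratio of 15.7 (95% counting interval 8.26 to 33.4, edgeR adjusted p = 0.152). TRIB3, a pseudokinase induced by CHOP, went from 605 to 2440 reads, a ratio of 4.64 (4.25 to 5.08, edgeR adjusted p = 0.0636). CHAC1, which degrades glutathione, held 38 and 123 reads. INHBE, an activin subunit, held 18 and 58, and GDF15, a secreted stress cytokine, 21 and 57. The metabolic regulators SESN2 and DDIT4, both restraining mTORC1, were 2.09 and 2.16 times mock. ATF4 itself, controlled largely by translation, stood at 179 and 200 reads, log2 0.35, and 3 members lay below 0, ATF5 at −0.89, CDKN1A at −0.59 and MAP1LC3B at −0.35. In the fit of a common GD change over all 3 mock and GD pairs, of which the deficient pair is 1, edgeR called 16 of 21 tested members of this list as higher and 0 as lower, where 9.75% of all tested transcripts were higher and 11.1% lower (20.9% in all).

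Among ER chaperones and folding enzymes, 19 of 20 members lay above 0, as did 4801 of all 10054 transcripts. Of the 20, 4 were at least 2-fold higher and 0 lower, and the median was 0.64. HSPA5 encodes BiP, the main HSP70 of the ER, and went from 9693 to 43168 reads, a ratio of 5.13 (95% counting interval 5.02 to 5.24, edgeR adjusted p = 0.102). The other members past 2-fold were DNAJB9, a BiP co-chaperone (252 and 564 reads), MANF, a secreted ER stress factor (578 and 1208), and the disulfide oxidase ERO1B (802 and 1421). HSP90B1, the ER HSP90, and CALR, a lectin chaperone, were 1.93 and 1.68 times mock at 20470 and 24164 reads in GD. P4HB, an abundant disulfide isomerase, held 12347 and 10816 reads, a log2 ratio of 0.01. FKBP14 alone lay below 0, at −0.88 with 83 and 37 reads.

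In ER-associated degradation, where UFD1 and VCP act, 3 of 21 members were at least 2-fold higher and 0 lower, with a median of 0.26. HERPUD1, a scaffold of the HRD1 ligase, held 8 reads in mock and 91 in GD, a ratio of 13.1 (95% counting interval 6.37 to 31.3). SEL1L, the partner of HRD1, went from 2043 to 3750 reads (2.11 times mock), and ERLEC1, a lectin of the same complex, from 30 to 62. The mannosidase-like genes EDEM1 and EDEM3 went apart, at 0.54 and −0.52. The list of p97 and its cofactors had a median of 0.03, which became −0.03 with library totals, and 0 of 23 members were at least 2-fold higher and 1 lower. That 1 was NSFL1C, the p47 cofactor, at 52 and 18 reads. The proteasome list had a median of −0.09 over 32 members. Of these PSMG1 (38 and 103 reads), an assembly chaperone, was at least 2-fold higher, and the lid subunits PSMD11 (122 and 48) and PSMD12 (547 and 231) lower. Over all transcripts 2.14% were at least 2-fold higher and 4.17% lower, so counts this small do not set the p97 or proteasome list apart. Of the sensors and factors of the unfolded protein response, ERN1, which encodes IRE1, held 261 and 705 reads. XBP1, whose messenger IRE1 splices, held 30 and 132, a ratio of 5.07 (95% counting interval 3.39 to 7.80). These reads were assigned to a single RefSeq transcript, so the ratio need not be that of all XBP1 messenger, spliced and unspliced. ATF6 and EIF2AK3 (PERK) stood at 0.55 and 0.73.

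Promoter sequence was taken from RefSeq on GRCh38.p14, while the deposited data used hg19. It is shown for 5 higher transcripts, picked from those whose promoters hold a match to 1 or more of the elements below. HSPA5, XBP1, HERPUD1 and CHAC1 belong to the lists above and KLHDC7B to none. The higher transcripts ERO1B, CARS, PLK3, IL7R, RBP4 and TIPARP-AS1 also held a match and are not shown. The window ran from 250 bases before to 50 after each gene's start. The ER stress element (ERSE) was searched as CCAAT, then 9 bases of any kind, then CCACG, its second form (ERSE-II) as ATTGG, 1 base, CCACG, and the C/EBP-ATF response element (CARE), a composite site for ATF4, as TGATGNAA, each on both strands. Capitals mark the matches. The CARE matches lie on the opposite strand and read as the reverse complement. Only bases before the start are shown, for HSPA5 (chr9:125241351-125241449, minus strand), XBP1 (chr22:28800570-28800661, minus), HERPUD1 (chr16:56931941-56932060, plus), CHAC1 (chr15:40953222-40953309, plus) and KLHDC7B (chr22:50545708-50545795, plus).
HSPA5: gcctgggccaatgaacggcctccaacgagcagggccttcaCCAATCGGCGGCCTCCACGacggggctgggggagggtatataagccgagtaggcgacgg
XBP1: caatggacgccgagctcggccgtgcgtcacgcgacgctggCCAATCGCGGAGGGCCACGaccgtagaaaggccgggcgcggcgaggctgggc
HERPUD1: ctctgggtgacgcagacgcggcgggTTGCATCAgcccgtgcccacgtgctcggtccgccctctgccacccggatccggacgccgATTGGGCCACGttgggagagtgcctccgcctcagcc
CHAC1: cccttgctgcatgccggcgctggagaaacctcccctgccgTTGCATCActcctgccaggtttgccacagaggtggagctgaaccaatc
KLHDC7B: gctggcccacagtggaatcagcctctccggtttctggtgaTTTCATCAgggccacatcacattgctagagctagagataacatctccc

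An ERSE was found in 3 of the 179 promoters matched for the 215 higher transcripts (1.68%), those of HSPA5, XBP1 and ERO1B, in 14 of the 8040 measured transcripts with a promoter (0.174%) and in 22 of all 27305 promoters in the table (0.0806%). Among ER chaperones 6 of 18 matched promoters held it, and among ER-associated degradation genes 0 of 18. HERPUD1, without an ERSE, held the second form, which 15 of all promoters had. A CARE was found in 8 of the 179 (4.47%), in 132 of the 8040 (1.64%) and in 1003 of all promoters (3.67%). It was found in 2 of 19 matched promoters of the integrated stress response list (10.5%), 6 of 28 of aminoacyl-tRNA synthetases (21.4%) and 5 of 14 of amino acid supply. Comparisons with the measured transcripts, of which 8040 of 10054 had a promoter, and with amino acid supply, with 14 of 19, are void because too few were matched. A match is a description of letters and shows no binding, and these members had been picked for their ratios or their list.

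Among genes for amino acid supply, SLC7A11, the cystine transporter, rose from 3327 to 9904 reads, a ratio of 3.43 (95% counting interval 3.30 to 3.57), and passed the 6-library test (log2 1.78, SE 0.221, edgeR adjusted p = 0.0372). SLC7A11-AS1, antisense to it, held 69 and 344 reads, and without stated strand its reads cannot be told apart from those of SLC7A11. Of 19 members 3 were at least 2-fold higher and 0 lower, and the median of 0.67 became 0.36 over members with 200 or more reads. The others past 2-fold were MTHFD2 (92 and 177 reads) and SHMT2 (23 and 65), both of mitochondrial one-carbon metabolism. For both, the deposited transcript is a noncoding RefSeq variant, so these reads need not follow the coding messenger. ASNS, which makes asparagine, was at 0.61 and PHGDH, the first serine synthesis enzyme, at 0.19. Cytosolic aminoacyl-tRNA synthetases had a median of 0.47, with the interval of the ratio above 1 for 16 of 18, against 3007 of all 10054 transcripts. SARS (2427 and 3817 reads) and AARS (3467 and 4912) were 1.81 and 1.63 times mock. The mitochondrial synthetases had a median of 0.19. Of all 34 synthetases 3 were at least 2-fold higher, CARS (16 and 70 reads), and the mitochondrial EARS2 (36 and 92) and WARS2 (30 and 72), all thinly covered. The CARS transcript is likewise a noncoding variant.

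**Figure D2:**
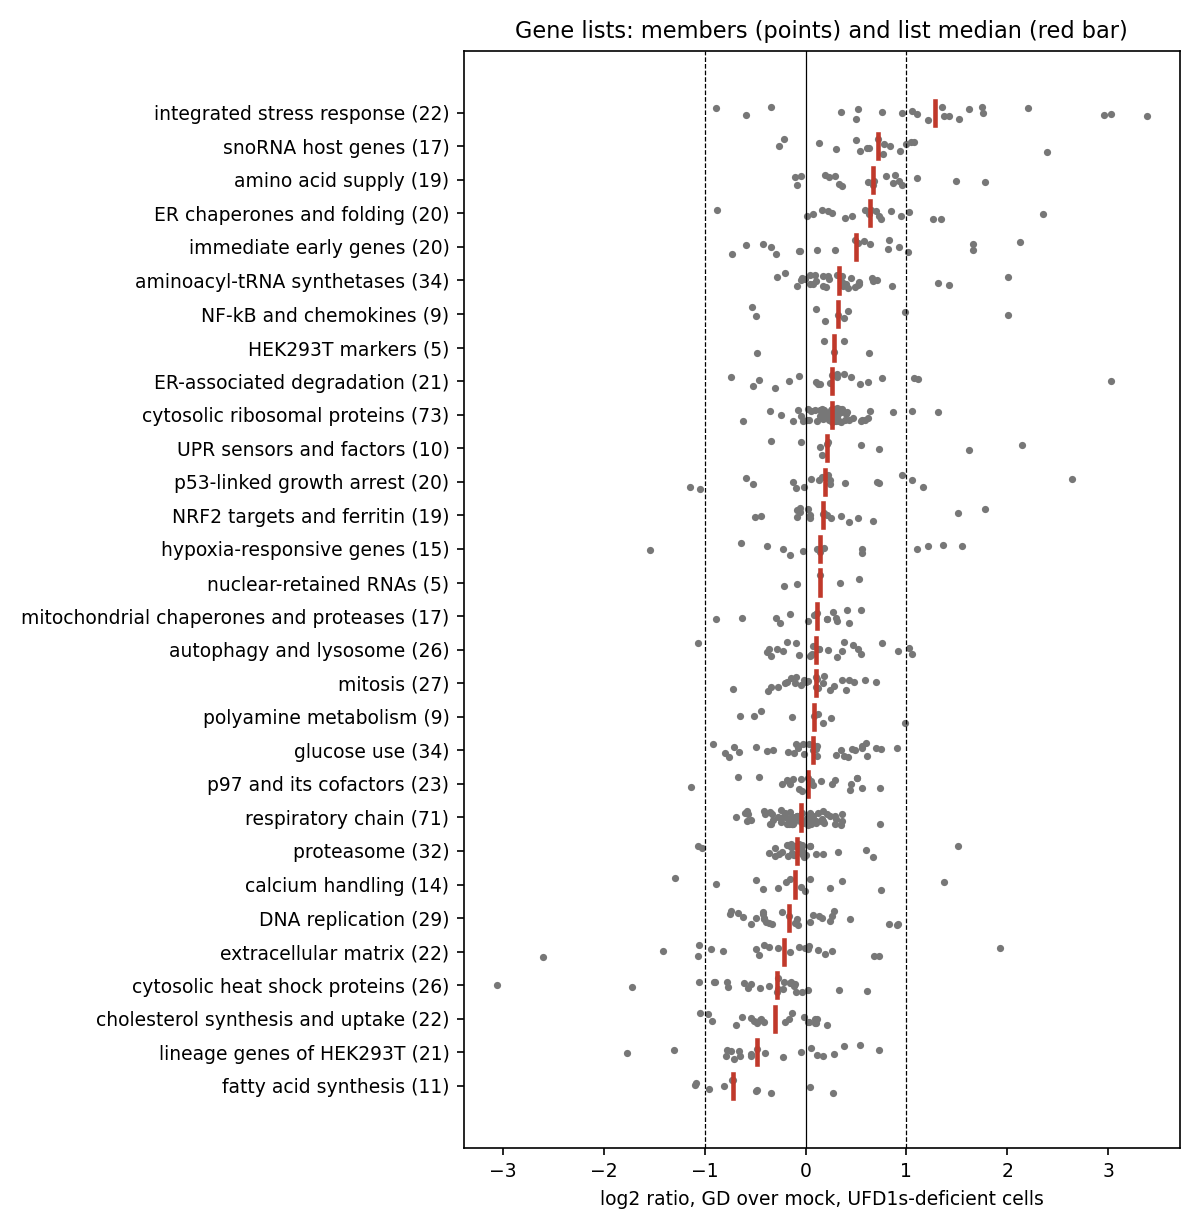
Points are the measured members of each gene list, by log2 ratio of GD over mock in deficient cells, with the number of members in brackets, the list median as a red bar and dashed lines at 2-fold. The integrated stress response has the highest median (1.28) and fatty acid synthesis the lowest (−0.72).

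Cytosolic heat shock proteins went the other way. Of 26 members 23 lay at or below 0, 3 were at least 2-fold lower and 0 higher, and the median was −0.28. HSPA1B, an inducible HSP70, went from 13538 to 1400 reads, or 0.119 times mock (95% counting interval 0.113 to 0.126, edgeR adjusted p = 0.224). HSPA1B is nearly identical to HSPA1A, and counting may split their reads. DNAJA1, an HSP70 co-chaperone, held 3740 and 979 reads, 0.301 times mock, and HSPA8, the constitutive HSP70, 11261 and 4700, 0.481 times. HSP90AB1, the constitutive HSP90, stood at 0.02 with 30461 and 26898 reads. HSF1, the factor that drives these genes, was at 0.60 with 1304 and 1724 reads. Over the 3 pairs edgeR called 11 of 25 members lower and 1 higher, against 11.1% and 9.75% of all tested transcripts. The pairs differed in size. In WT of the genotype set 4 of 27 members were at least 2-fold lower and 0 higher, in stress-set GD 0 of 23 lower and 1 higher (median −0.24). That 1 was DNAJB1, at 1.46 there but −0.91 in deficient cells and −1.17 in WT of the genotype set. DNAJA1 was at −1.62 in WT of the genotype set and −0.61 in stress-set GD. The part of the set in this was not tested.

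Lipid synthesis was lower. Of 11 fatty acid genes 2 were at least 2-fold lower and 0 higher, with a median of −0.72. The desaturase FADS2 held 3627 and 1468 reads (0.466 times mock) and ACSL3, which activates fatty acids, 143 and 56. FASN, the fatty acid synthase, went from 41722 to 22019 reads (0.608 times mock), SCD, the stearoyl-CoA desaturase, from 27426 to 13548, and ACLY, which supplies cytosolic acetyl-CoA, from 255 to 112. Over the 3 pairs edgeR called 7 of 15 tested members lower and 1 higher, beside the same 11.1% and 9.75%. The 22 measured genes of cholesterol synthesis and uptake had a median of −0.31, with 0 at least 2-fold higher.

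The 10 highest ratios, besides the stress genes above, included ANKRD1, a nuclear cofactor, at 7718 and 55735 reads, a ratio of 8.32 (95% counting interval 8.12 to 8.52). KLHDC7B held 0 reads in mock and 63 in GD, 24.2-fold higher when 3 counts stand in for the 0 in mock. The exact 95% lower limit of its ratio was 19.1. GADD45A, a growth arrest gene, held 51 and 302 reads, PPARG, a lipid-sensing nuclear receptor, 10 and 73, SDHAF4, an assembly factor of succinate dehydrogenase, 6 and 55, and NEMP1, a nuclear envelope protein, 4 and 53. ANKRD1, CYR61 (7017 and 26626 reads) and CTGF (9196 and 25274) are known targets of YAP and TAZ. Their log2 ratios were 3.05, 2.13 and 1.66 in deficient cells and 2.91, 2.96 and 2.39 in WT of the genotype set, but 0.51, −0.12 and −0.85 in WT GD of the stress set. In WT TG of the stress set, measured against the same mock library as that GD, they were at 0.76, 2.40 and 1.31. Their GD values thus differed between the sets, and the part of the set in this was not tested. KLF4, an immediate early factor, went from 342 to 951 reads and was also high in both WT pairs, at 2.07 and 1.26.

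Besides HSPA1B, the lower side held genes of varied function. LRP2, the endocytic receptor megalin, fell from 1202 to 228 reads (log2 −2.19, SE 0.252, edgeR adjusted p = 0.0254). KCTD12, an auxiliary subunit of GABA-B receptors, fell from 4521 to 1022 (log2 −1.94, SE 0.202, edgeR adjusted p = 0.018), and the histone transcript HIST2H3D from 2912 to 638 (log2 −1.99, SE 0.212, edgeR adjusted p = 0.018). Histone genes share sequence, so single histone counts are uncertain. IGFBP5, an IGF-binding protein, held 580 and 79 reads, 0.157 times mock (95% counting interval 0.122 to 0.199, edgeR adjusted p = 0.0636). The transcription factors EOMES (67 and 5 reads), SOX3 (314 and 46) and HOXA10 (53 and 4), the vitamin D hydroxylase CYP27B1 (225 and 30), the lipid kinase SPHK1 (60 and 6), the vasopressin receptor AVPR1A (121 and 17), the receptor TLR6 (83 and 11) and DEPP1 (221 and 37) completed the 10 lowest. Among abundant transcripts outside the naming rule, picked after their values were seen, the receptor NOTCH3 held 1389 and 288 reads, the growth arrest gene GAS1 828 and 168, the matrix proteoglycan AGRN 8702 and 2724, the splicing factor SFPQ 13613 and 5177 and MAT2A, which makes S-adenosylmethionine, 7048 and 2619. The lineage list had a median of −0.48 with 2 of 21 members at least 2-fold lower, LGR5, the R-spondin receptor (1428 and 361 reads), and HAND2 (82 and 26). Of all measured transcripts 4.17% were at least 2-fold lower. Of 22 matrix genes 4 were at least 2-fold lower, IGFBP5, the small proteoglycan LUM (101 and 30 reads), the laminin chain LAMA5 (5468 and 2256) and IGFBP4 (515 and 213), and 1 was higher. The latter was TGFBI, a secreted adhesion protein, at 22 and 86 reads.

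Small, wide shifts were seen in transcripts of translation. Of 73 cytosolic ribosomal protein transcripts 66 lay above 0 with a median of 0.26, where 4801 of all 10054 did. The 2 at least 2-fold higher, RPS3 (31 and 74 reads) and RPL13 (150 and 276), are a share near the 2.14% of all transcripts. With library totals in place of TMM factors that median was 0.19. RPL12 held 7740 and 10324 reads, a ratio of 1.54, and RPS2 49180 and 56303. The snoRNA host genes, many of whose spliced RNAs are cleared by nonsense-mediated decay, had a median of 0.72, with 15 of 17 above 0 and 3 at least 2-fold higher. SNHG7 held 29 and 153 reads, and GAS5 1002 and 1668. MALAT1 went from 210031 to 264070 reads, log2 0.53.

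Of 34 genes that take up or use glucose 0 were past 2-fold, and their median was 0.07. PGAM1, a glycolytic mutase, held 13355 and 6824 reads (−0.76), while GFPT1, the first enzyme of the hexosamine pathway, held 186 and 275 (0.75) and the arrestin ARRDC3 180 and 298 (0.91). The 71 respiratory chain genes had a median of −0.04 and 0 past 2-fold, and the same held for 27 mitotic (0.10) and 29 DNA replication genes (−0.16). Of 15 hypoxia-responsive genes 4 were at least 2-fold higher, BHLHE40, a circadian repressor (786 and 1758 reads), ANKRD37 (16 and 50), NDRG1 (84 and 175) and DDIT4, and 1 was lower, EGLN3, an oxygen-sensing hydroxylase (322 and 93). The list median was 0.14. Growth arrest genes linked to p53 went both ways, with GADD45A, SESN2 and PLK3, a polo-like kinase (104 and 208 reads), at least 2-fold higher and TIGAR, a fructose bisphosphatase (1803 and 704), and BTG2, an antiproliferative factor (612 and 255), lower among 20. Of 26 autophagy and lysosome genes GABARAPL1, an ATG8 protein, was higher (1511 and 2672 reads) along with SESN2, and SESN3, another sestrin, lower (1693 and 700). Targets of NRF2, the oxidative stress factor, had a median of 0.17, with SLC7A11 and the small MAF gene MAFG (17 and 51 reads) past 2-fold among 19. The stanniocalcins went apart, STC2 at 649 and 1464 reads and STC1 at 115 and 38. Mitochondrial chaperones and proteases had 0 of 17 past 2-fold and a median of 0.12. RELB, an NF-kB subunit, held 130 and 469 reads, the 1 member past 2-fold of 9 NF-kB genes. For the lists of this paragraph, the share over all measured transcripts was 2.14% higher and 4.17% lower at 2-fold or more.

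**Figure D3:**
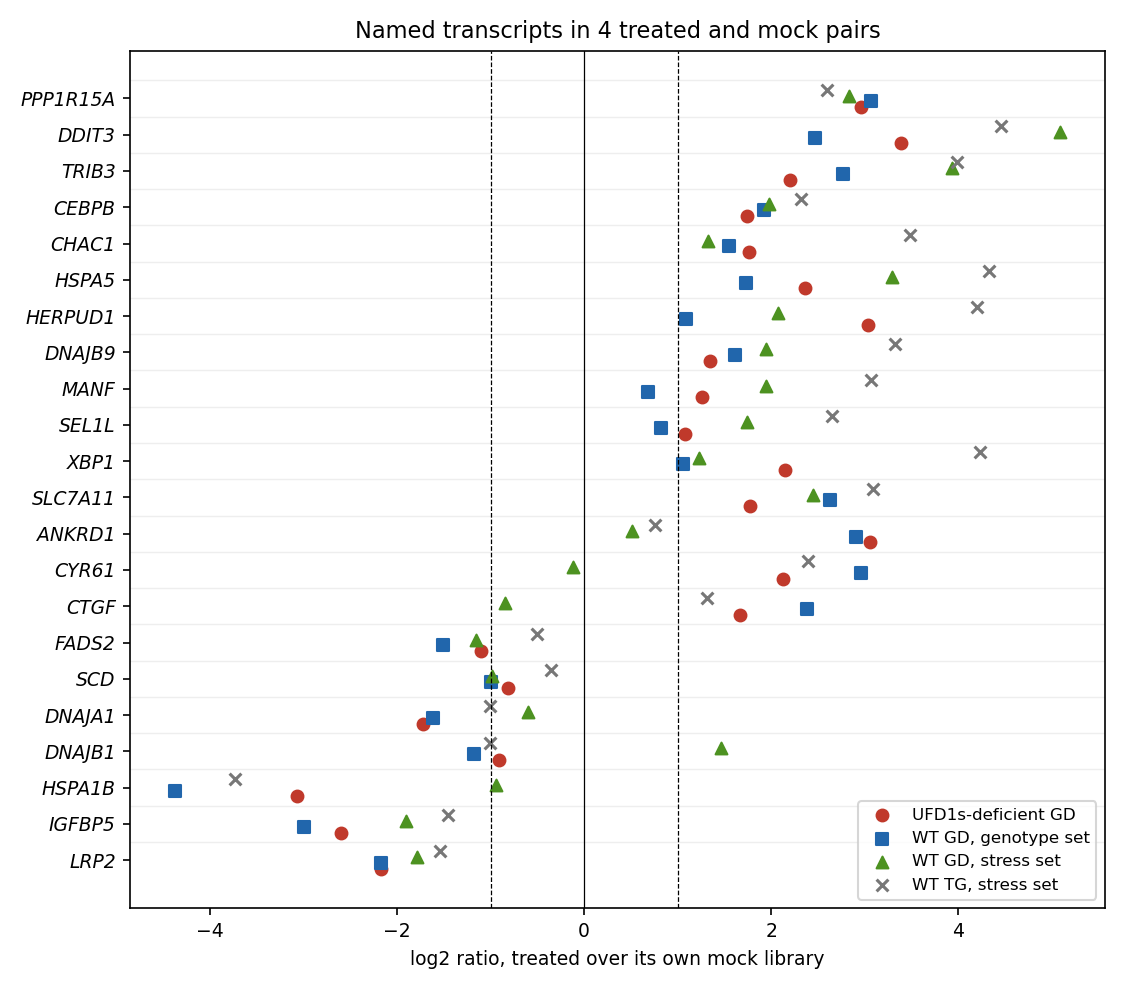
Log2 ratio of treated over its own mock library for 22 named transcripts in 4 pairs, deficient GD (circles), WT GD of the genotype set (squares), WT GD of the stress set (triangles) and WT TG (crosses), with dashed lines at 2-fold. The integrated stress response and ER genes are to the right in all 4 pairs, while ANKRD1, CYR61 and CTGF are to the right in both genotype-set pairs and at 0.51, −0.12 and −0.85 in stress-set GD.

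The same rule in WT cells of the genotype set gave 676 of 9927 transcripts past 2-fold (6.81%), 2.39% higher and 4.42% lower. It gave 650 of 8904 (7.3%) in stress-set GD, 3.73% higher and 3.57% lower, and 733 of 9116 (8.04%) in stress-set TG, 4.73% higher and 3.31% lower. Among the higher transcripts that WT of the genotype set also measured, 94 of 179 were past 2-fold in both. That is 52.5% of the deficient and 44.5% of the WT list. For the lower ones it was 187 of 347 (53.9% and 50.3%). No transcript was past 2-fold in opposite directions in these 2 pairs. Against stress-set GD, 65 of 141 higher (46.1% of the deficient and 24.4% of the WT list) and 87 of 300 lower transcripts (29% and 32.8%) were shared, and 1 was past 2-fold in opposite directions. These pairs share no library with the deficient pair. Transcripts chosen in 1 pair lie closer to 0 in the other: those higher in deficient cells had medians of 1.24 there and 1.02 in WT, and those chosen as higher in WT had 1.23 in WT and 0.94 in deficient cells.

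**Figure D4:**
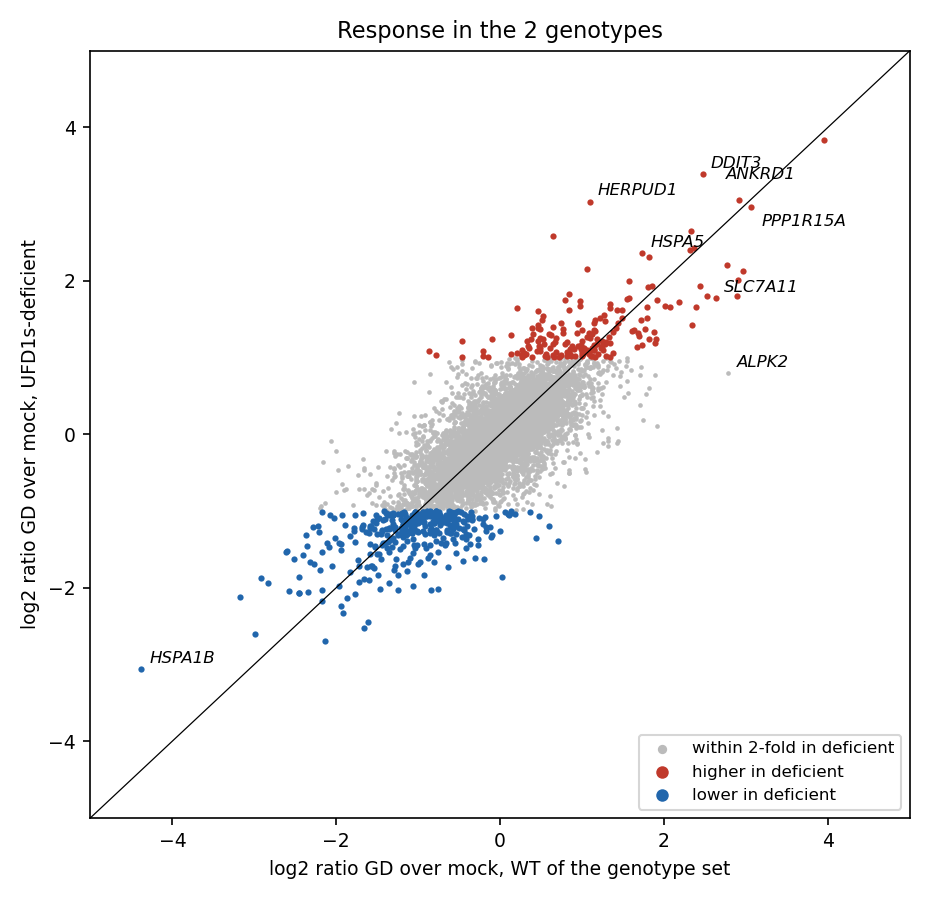
Log2 ratio of GD over mock in WT of the genotype set (x) and in deficient cells (y) for transcripts that passed the read minimum in both pairs, with the line of equal response and colours by the deficient call. Most coloured points lie on the same side of 0 in both, and HERPUD1 (3.03 against 1.09) and ALPK2 (0.80 against 2.78) lie off the line.

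No difference of response between genotypes was called. EdgeR's interaction test called 0 of 10368 transcripts (0%), with 123 at an unadjusted p under 0.05, and DESeq2 called 0, with 22. With 1 library in each deficient group and 1 residual degree of freedom, 0 calls do not show that the genotypes responded alike. By size alone, 358 of 10373 transcripts (3.45%) differed by 2-fold or more in their response, 196 with the higher ratio in deficient cells and 162 with the lower. The 358 were thinly covered, with a median of 75 reads in the highest library. Only 4 of the 4885 transcripts with 500 or more reads were among them. HSPA1B, given below, was 1 of these, and the keratin gene KRT17, named after its values were seen, another. KRT17 held 389 and 1193 reads in deficient cells and 115 and 775 in WT of the genotype set. Its log2 ratios were 1.81 and 2.89, and 3.25 in stress-set GD (interaction log2 −1.30, SE 0.317, not called). HERPUD1 held 8 and 91 reads in deficient and 37 and 74 in WT mock and GD (interaction log2 1.96, SE 0.859, edgeR adjusted p = 1). Among transcripts that the naming rule admits, the response differed most by size in CASP2, an initiator caspase. It held 24 and 36 reads in deficient cells, 70 and 10 in WT of the genotype set and 102 and 14 in WT of the stress set. CASP2 was thus under the read minimum in both deficient libraries and entered only through WT mock. Its interaction log2 was 3.23 (SE 0.814), taken from the values it was picked by, and was not called. On the opposite side the largest difference was in GOLM1, a Golgi membrane protein. GOLM1 held 104 and 23 reads against 31 and 47, and 74 and 34 in the stress set. SOCS2, a cytokine signalling suppressor, held 12 and 74 reads in deficient cells and 1 and 0 in WT. SPHK1 held 60 and 6 against 20 and 14, the kinase gene ALPK2 81 and 126 against 25 and 177, and PLIN2, a lipid droplet coat protein, 62 and 14 against 25 and 30. HES5, a Notch target, held 30 and 10 reads in deficient cells, also under the minimum there, and 55 and 0 in WT. HSPA1B was at −3.07 in deficient cells and −4.38 in WT, and HSPA5 at 2.36 and 1.73. In stress-set GD HSPA1B was at −0.94 and HSPA5 at 3.29, so the 2 WT pairs lay on either side of the deficient value.

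In the tested fit 6 of 10368 transcripts were called for GD in deficient cells (0.0579%), 3 higher (0.0289%) and 3 lower (0.0289%), all named above. The fit has 1 residual degree of freedom, the difference of the WT response between the 2 sets. Without the set term 0 were called, and when any 1 of the 4 WT libraries was left out, also without that term, PPP1R15A was the only 1 of the 6 still called. At the 2-fold threshold, RGS10 (26 and 50 reads) and ZNF496 (237 and 417) lay just inside and BOLA3 (40 and 74) and PLD6 (256 and 448) just outside on the higher side. On the lower side MAPRE2 (70 and 28) and MARCKSL1 (593 and 255) lay inside and EPPK1 (2934 and 1273) and SLC16A10 (1174 and 508) outside. The higher and lower transcripts had median lengths of 2813 and 3314.5 bases and median GC contents of 47.9% and 52.1%, against 3186 bases and 48.8% over all measured transcripts, in GENCODE transcripts that matched at least 94.4% of each group. Noncoding accessions were 28 of the 215 higher and 42 of the 419 lower transcripts, against 6.85% of all. These values depended on coverage. With 200 or more reads the median lengths were 3447 and 3739.5 bases against 3451 over all. Median GC contents were then 46.3% and 54.5% against 48.2%. Noncoding accessions were 5 of 78 higher (6.41%) and 8 of 163 lower transcripts (4.91%), against 3.51%.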

How the data were processed

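RNA was sequenced after removal of ribosomal RNA, per the series text, from TRIzol extracts with the TruSeq Ribo Profile kit, per the labels' protocols. That kit is made for ribosome profiling, so whether reads are RNA or footprints is uncertain. Per the file headers, the values the authors deposited are read counts for single RefSeq transcripts, whole numbers without normalization. Tools and builds per the submitters' processing notes were Bowtie2, bedtools, cutadapt, FastQC, hg19 and mm10. How reads were assigned, and whether strand was used, is not given in the sources used here, so antisense partners cannot be told apart. Each symbol has 1 transcript row, and 15 symbols turned into numbers were named by accession. The lowest row sum of the genotype table was 75.

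Counts of its 4 libraries were scaled with TMM factors (edgeR 4.0.16, R 4.3.3). Log2 ratios used a prior count of 5. Ratios in words are of scaled reads, with exact conditional 95% intervals. These intervals cover counting error only, and a ratio against 3 counts in place of 0 is not a bound. The tests used edgeR's quasi-likelihood method with Benjamini-Hochberg adjustment at 0.05, on the 10368 transcripts in both HEK293T tables (edgeR's low-count filter removed none) and 6 libraries, with set, genotype, treatment and their interaction. The lone deficient libraries were assumed to vary like WT. P-values measure only the spread between these libraries, which may be technical. DESeq2 1.42.0 was an alternative. Scripts were tested on simulated data.

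Members and gene lists were chosen with earlier results of these data known. Named genes were UFD1, NPLOC4 and VCP, the 10 highest and 10 lowest ratios and the 8 highest and lowest differences between genotypes (without small RNA, histone and uncharacterised names), up to 6 members a list with the largest ratio, the 10 most abundant transcripts and the 2 nearest the threshold on each side. Other list members and called transcripts were named after their values were seen. Promoter shares are given for groups mostly matched in RefSeq. Mouse libraries were not used, and some results are not reported here.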

Additional observations from a re-analysis of the deposited data

Results flagged for a closer look

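For 2 named transcripts the deficient pair was past 2-fold while both WT GD pairs lay on the other side of 0. FOXA3, a liver and gut transcription factor, was at −1.81 in deficient cells (54 and 10 reads) and at 0.59 and 0.05 in WT of the genotype and stress sets. RGS10, a regulator of G protein signalling, was at 1.002 in deficient cells (26 and 50 reads) and at −0.47 and −0.27 in WT. The edgeR interaction test called neither, with adjusted p = 1 for both and unadjusted p of 0.0366 for FOXA3 and 0.0887 for RGS10.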

How the results depend on the processing

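The 634 transcripts past 2-fold became 406 with a prior count of 20, 241 with 200 reads in the higher library and 236 when the whole counting interval had to pass, and stayed within 1.5 times under the other settings. With library totals 26.5% of them were higher, against 33.9%. The 6 tested calls became 73 in DESeq2 and 32 with RLE factors, 2164 in the additive model over 3 pairs and, in an alternative added after seeing the data, 3934 in the genotype set alone over 2 pairs. All 6 were among the calls of each of these. With no replicate block (no set term) edgeR called 0, with 187 at an unadjusted p under 0.05. Leaving out 1 WT library at a time, also without the set term, gave 5 to 8 calls, of which PPP1R15A was the 1 shared with the 6 in each case. The labels give no replicate numbers, so the set is the only block. The interaction gave 0 calls in each fit that held it, these included. No called named gene changed sign. With 200 reads the median moved by more than its members' usual counting interval for 4 of 30 lists, in which amino acid supply went from 0.67 to 0.36 and immediate early genes from 0.50 to 0.29. Depth limits what can be said of transcripts near 50 reads, and 1 library a side limits all of it.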
